A study of Mus musculus with 7 samples.

Results

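The 39 mouse Hox genes of clusters a, b, c and d are described here as gene models of the annotation deposited with the series. A member is a protein-coding gene record whose symbol is Hox followed by one of the 4 cluster letters and a number, with nothing after it. The rule found 39 of 21700 protein-coding genes (0.180%), among 32286 genes of all kinds. The series is a droplet 3' single-cell RNA study of mouse intestinal stroma in which cells positive for an Rspo3-GFP reporter transgene, and negative for Epcam and CD45, were sorted from C57Bl6 background mice of 8 to 12 weeks. There were 7 samples in 4 groups. Small intestine gave 2 untreated samples, 2 from unirradiated controls and 2 from animals irradiated with 12 Gy, and untreated colon gave 1. All carry the reporter, which limits each sample to cells in which the Rspo3 transgene is active, and the labels do not say whether animals were pooled. No expression values were analysed here, so nothing below says how much of a Hox gene these cells make, and every number describes a record of the annotation, not a cell or an animal. An annotation has no replicates, so its lengths and counts are given without error and without a test.

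Hox genes encode transcription factors that bind DNA through a homeodomain and give cells their position along the head-to-tail axis. Within a cluster the genes stand in the order in which they are used, from the head at the low-numbered end to the tail at the high-numbered end, and genes with the same number in different clusters (paralogues) descend from a common ancestor. In the gut, nested Hox domains in the mesenchyme mark regions from foregut to hindgut, and paralogue 13 genes act in the hindgut. The gene models matter for the sorted stroma because a 3' read is given to a gene only where the model of that gene reaches.

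The 4 clusters and 13 paralogue numbers give 52 places, of which 39 were filled and 13 were empty. Cluster a on chromosome 6 had 11 members, cluster b on chromosome 11 had 10, cluster c on chromosome 15 had 9 and cluster d on chromosome 2 had 9. Paralogues 4, 9 and 13 were present in all 4 clusters. Those groups hold Hoxa4 to Hoxd4, which pattern the neck and hindbrain, Hoxa9 to Hoxd9 of the trunk, and Hoxa13 to Hoxd13. Of the last group, Hoxa13 and Hoxd13 act in hindgut, urogenital tract and digits. Paralogues 2, 7 and 12 each had 2 members. The remaining 7 numbers had 3 members each. Cluster c had no member with a number below 4, cluster b none from 10 to 12, and cluster d none from 5 to 7 and no Hoxd2.

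Every member of a cluster lay on the same strand: minus for cluster a, plus for b, c and d. Of all 21659 pairs of neighbouring protein-coding genes in the annotation, 52.2% shared a strand. Read in the direction of transcription and placed by the first coding base, the paralogue numbers fell from 13 to the lowest number in all 4 clusters, with 0 of 35 neighbouring pairs out of order. Placed by the start coordinate of the gene record, 2 pairs were out of order. The record of Hoxc5 began at 102967443, before that of Hoxc9. The record of Hoxd3 began at 74711927, just 2 bases before that of Hoxd4. Placed by the 5′ end of the record, 3 pairs were out of order, the added one being Hoxa3 before Hoxa6 in cluster a, whose genes lie on the minus strand. Hoxa3, Hoxc5 and Hoxd3 had records that reach far upstream of their coding sequence, and their coding sequences stood in the usual place.

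**Figure D1:**
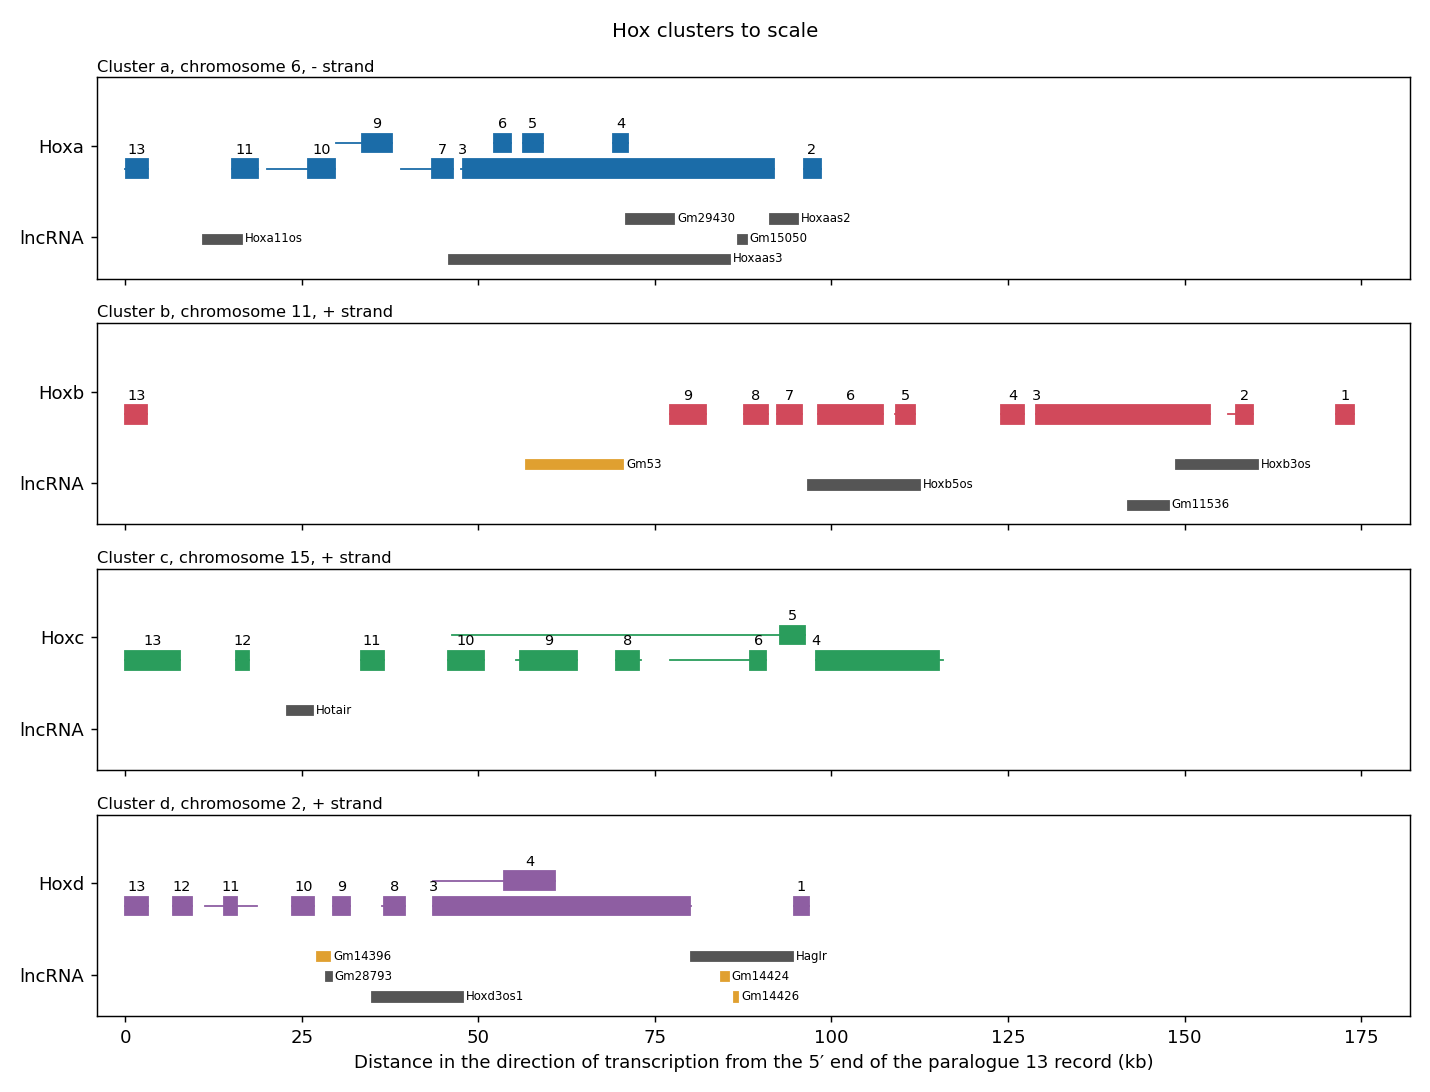
Map of the 4 clusters to scale, with distance in kb from the 5′ end of the paralogue 13 record on the x axis. Numbered boxes are the longest protein-coding transcripts and thin lines the rest of each gene record, lower bars are long non-coding RNA genes (dark, strand opposite to the Hox genes; amber, same strand). Cluster b is the longest, with Hoxb13 set 74009 bases from Hoxb9, and cluster c holds a single lncRNA gene, Hotair.

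Cluster d had the shortest span and cluster b the longest. Hoxd13 to Hoxd1 spanned 96833 bases (chromosome 2, 74668310 to 74765142), cluster a on chromosome 6 spanned 105291 bases, Hoxc13 to Hoxc4 spanned 115750 bases (chromosome 15, 102921103 to 103036852), and Hoxb13 to Hoxb1 spanned 173941 bases (chromosome 11, 96194316 to 96368256). That is 9572 bases per member in cluster a, 10759 in d, 12861 in c and 17394 in b. Hox gene records covered 77.2% of the span of cluster a, 35.1% of b, 70.3% of c and 63.1% of d, and the exons of the longest protein-coding transcripts covered 12.7% (b) to 22.3% (a). In the deposited annotation no cluster held a protein-coding gene other than its Hox members (0 in each of the 4). Skap1, which encodes a Src kinase-associated adaptor, followed cluster b at 96336 bases beyond Hoxb1. At the high-numbered end of clusters a and d, the homeobox gene Evx1 lay 52617 bases from Hoxa13, and its relative Evx2 lay 8752 bases from Hoxd13. The nearest coding neighbours of cluster b and cluster c at the high-numbered end were Ttll6 at 28864 bases and Calcoco1 at 198924 bases. At the low-numbered end, Smug1 lay 116437 bases beyond Hoxc4 and Mtx2 lay 60660 bases beyond Hoxd1.

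Neighbouring Hox genes stood close together. The median gap between neighbouring gene records was 4099 bases over 35 pairs, against 13254 bases over all neighbouring protein-coding pairs, and 32 of the 35 gaps lay below that value. Hox pairs were formed by paralogue number and the pairs of all genes by start position. Some Hox gaps therefore lie inside another Hox record, such as that between Hoxa4 and Hoxa5 inside Hoxa3. By cluster the median gap was 2900 bases for a, 2594 for b, 5026 for c and 3704 for d. The 3 wider gaps were those between Hoxb9 and Hoxb13 (74009 bases), Hoxc11 and Hoxc12 (15817 bases), and Hoxd1 and Hoxd3 (14537 bases). The first and the last stand where paralogue numbers are missing. The narrowest gap that was not an overlap lay between Hoxa9 and Hoxa10, whose products act in trunk and uterus: 107 bases. In cluster b it lay between Hoxb7 and Hoxb8 (1307 bases), in cluster c between Hoxc4 and Hoxc5 (1504 bases), and in cluster d between Hoxd11 and Hoxd12 (1851 bases). Between the longest protein-coding transcripts, Hoxa9 and Hoxa10 were 3826 bases apart, and Hoxd11 and Hoxd12 were 4617 apart. By that measure the narrowest gap was 1700 bases in cluster a (Hoxa5 and Hoxa6) and 2621 in cluster d (Hoxd9 and Hoxd10).

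The coding parts stood farther apart than the records. Between coding sequences the median gap was 8428 bases, from 2017 bases (Hoxa5 and Hoxa6) to 75315 bases (Hoxb9 and Hoxb13). Hoxb3 and Hoxb4 were 1687 bases apart by their records and 23923 bases apart by their coding sequences. Hoxc4 and Hoxc5 were 1504 and 19283 bases apart. In both pairs the lower-numbered gene begins far upstream of its first coding base. The 6 pairs in which a paralogue number is skipped had a median coding gap of 16389 bases (6841 to 75315), and the 29 pairs with consecutive numbers a median of 7844 bases (2017 to 23923). The ranges overlapped: Hoxa7 and Hoxa9, with no paralogue 8 between them, were 6841 bases apart between their coding sequences.

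**Figure D2:**
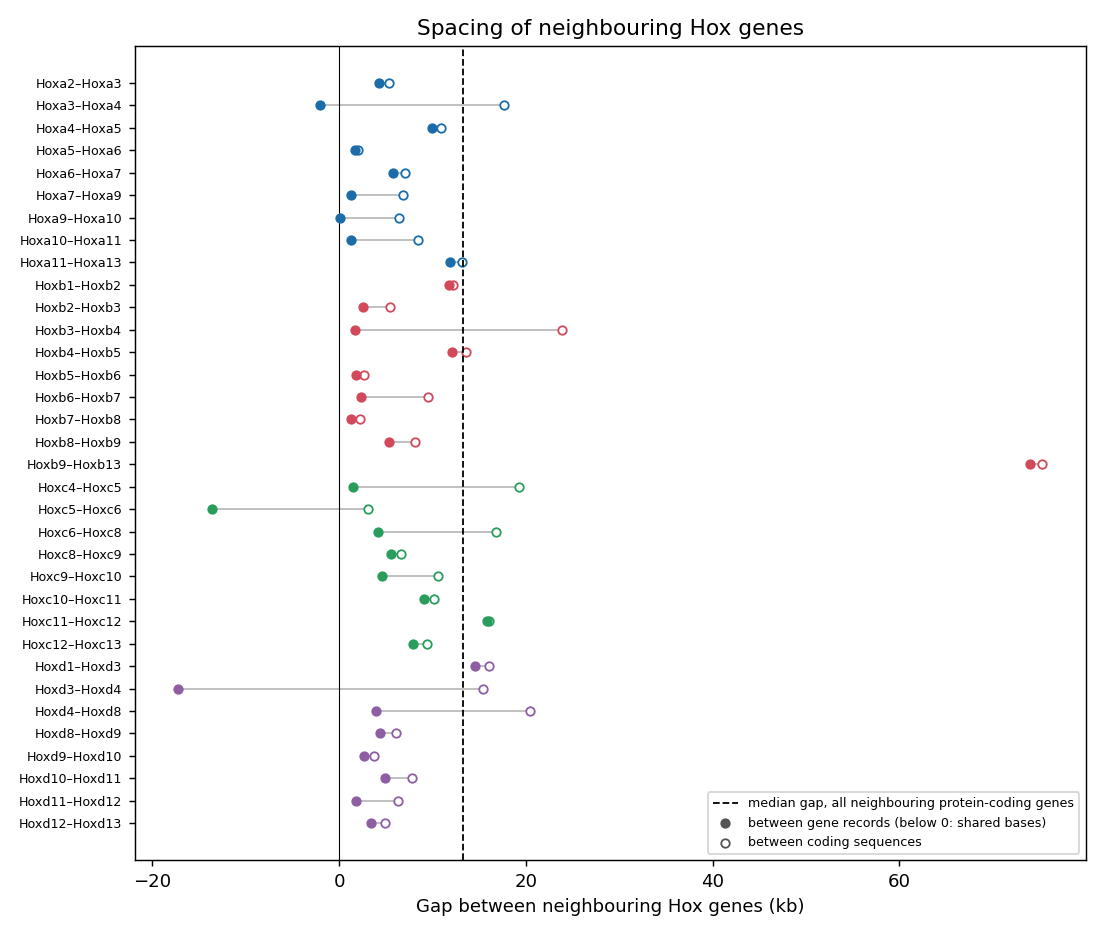
Gap in kb between pairs neighbouring by paralogue number, coloured by cluster. Gaps between gene records are filled points (below 0, shared bases) and gaps between coding sequences open points. The dashed line is the median for all protein-coding genes neighbouring by start position, 13254 bases. Filled points of 3 pairs lie below 0, while no open point does, and the Hoxb9 and Hoxb13 pair stands apart at 74009 bases.

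The coding part of the models had 1 form throughout. The longest protein-coding transcript of each of the 39 members had 2 coding exons, a form found in 6.54% of the 21698 protein-coding genes with such a transcript. As background, the homeobox, the stretch that encodes the homeodomain, lies in the second coding exon of Hox genes. The intron between the coding exons, not measured for other genes, had a median of 822 bases over all members. By cluster the median was 999 bases in a, 828 in b, 1261 in c and 556 in d. This intron was under 1000 bases in 24 members and over 2000 bases in 4. The longest was that of Hoxc13, a gene of hair and nail (5251 bases), followed by Hoxc10 (3189 bases), Hoxb9 (2565 bases) and Hoxb7 (2249 bases). The shortest was the 105 bases of Hoxc4, on a transcript that is a special case given below, and then the 159 bases of Hoxd12. The coding sequence had a median of 858 bases, against 1155 bases over all protein-coding genes. It was longest in Hoxa3, which is needed for thymus and parathyroid (1329 bases), and the other paralogue 3 genes, Hoxb3 and Hoxd3, had 1299 bases each.

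The 2 coding exons varied in different parts of the series of numbers. In paralogues 9 to 13 the second coding exon had 230 to 275 coding bases in all 16 members, with a median of 240.5. The first coding exon carried the variation there, from 517 bases in Hoxb9 to 976 in Hoxa10. In the 8 members of paralogues 1 to 3 the second coding exon had a median of 707 bases. It measured 677 bases in Hoxb2, 737 in Hoxa2, 755 in Hoxd3, 800 in Hoxa3 and 851 in Hoxb3, all of them genes of hindbrain and pharyngeal arches. Hoxb1 and Hoxd1 had 326 and 332 bases. These lay at the upper end of paralogues 4 to 8, which had a median of 290 and a highest value of 344. Hoxc4 fell outside this pattern with 14 coding bases in the second coding exon. Its longest protein-coding transcript (Hoxc4-202, 2121 exonic bases, 453 coding) stops early. The shorter transcript Hoxc4-201 has 792 coding bases, of which 353 are in the second coding exon, close to the 344 bases of Hoxa4.

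**Figure D3:**
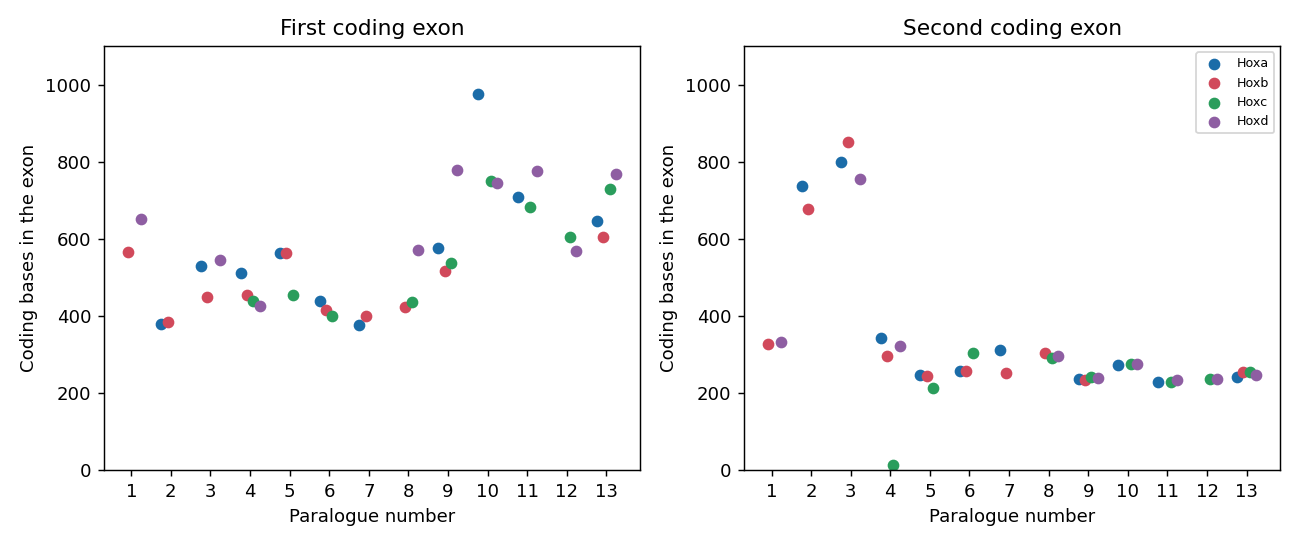
Coding bases in the first (left) and second (right) coding exon against paralogue number, 1 point per member shown, coloured by cluster. Paralogues 9 to 13 lie in a narrow band of 230 to 275 bases on the right, paralogues 2 and 3 lie between 677 and 851, and the point at 14 bases is Hoxc4.

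The shared part can be read in the sequences. Coding sequences came from GENCODE M21 transcripts of the same build, whose exons were identical for all 39 members. The 12-base word CTGGTTCCAGAA, chosen from these same sequences as one of the commonest, had an exact copy in 22 of 39 members. The word that begins 1 base before it was as common. It was found in 64 of 21250 coding sequences (0.301%), of which 42 were not Hox genes, among them other homeobox genes such as Msx1, Nkx2-3, Isx and Cdx1. The stretches below show it with 9 bases on each side, 5′ to 3′, with the 12 bases that line up with the word in capitals. They were chosen to show a central member, which has 2 mismatches, and 2 members of paralogue 13 from different clusters.
Hoxb6: gatcaagatTTGGTTTCAGAAccggcgcat
Hoxa13: ggtcacaatCTGGTTCCAGAAcaggagggt
Hoxd13: agtaaccatTTGGTTTCAGAAtcgaagggt

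With up to 2 mismatches the word was found in 37 of 39 members, each time in the second coding exon, and at any place in 14.3% of all coding sequences. It began 148 to 262 bases after the intron, with a median of 169. Hoxb3, at 262 bases, was the member farthest out, and Hoxa3 and Hoxd3 had 184 and 178 bases. The coding bases left after the word were fewer at the high-numbered end: 46 to 73 in the 15 members of paralogues 9 to 13 that had it, 52 to 166 in 14 members of paralogues 4 to 8, and 145 to 604 in 8 members of paralogues 1 to 3. The first and the last range did not overlap. Hoxd10, a gene of lumbar motor neurons, had the best match in the same reading frame at 3 mismatches, 190 bases after the intron, with 73 coding bases left. Hoxc4-202 ended before this place, and Hoxc4-201 had it with 1 mismatch, 166 bases after the intron. Hoxa4 also had it at 166 bases.

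Non-coding exons set 7 members apart. The longest protein-coding transcript had 2 exons in 32 of 39 members, against 10.2% of all protein-coding genes. Hoxb6, Hoxc9 and Hoxd3 had 3 exons, Hoxb3 and Hoxc4 had 4, Hoxa3 had 5 and Hoxd4 had 6. In all 7 the extra exons were non-coding, since every member had 2 coding exons. All 3 members of paralogue 3 were among them. The 5′ UTR, the exonic part before the start codon, reached 1266 bases in Hoxa9, 1234 in Hoxd4 and 1058 in Hoxb8. It was 0 bases in the model of Hoxd13, whose transcript begins at the start codon.

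The 3' UTR, the exonic part after the stop codon in which most 3' reads fall, was of ordinary length. Its median over the 39 members was 966 bases (quartiles 745 and 1218), against 943 bases (346 and 2027) over 20829 protein-coding genes with one. It exceeded the median of all genes in 21 of 39 members. The quartiles lay closer together than those of all genes. By cluster the median was 1144 bases for a, 1050 for b, 960 for c and 787 for d, and each cluster ran from a short to a long value. Cluster a ran from 77 bases in Hoxa6 to 1309 in Hoxa10. Cluster b ran from 383 bases in Hoxb2 to 1736 in Hoxb9. Cluster c ran from 92 bases in Hoxc12 to 1987 in Hoxc5, and cluster d from 30 bases in Hoxd11, a gene of forearm and kidney, to 1653 in Hoxd12.

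Paralogues with the same number were alike in some groups and not in others. The 4 paralogue 13 genes were within 1.21-fold of each other, with 1210 bases in Hoxa13, 1218 in Hoxb13, 1389 in Hoxc13 and 1463 in Hoxd13. The paralogue 2 genes were short in both clusters that have one, with 469 bases in Hoxa2 and 383 in Hoxb2. Hoxb8, Hoxc8 and Hoxd8 had 845, 966 and 1121 bases. The other groups lay between these and the extremes. Hoxb1 and Hoxd1 had 1117 and 753 bases, and Hoxa3, Hoxb3 and Hoxd3 had 878, 1531 and 1192. In paralogue 4 the lengths were 671 bases in Hoxa4, 1310 in Hoxb4, 801 in Hoxc4 and 573 in Hoxd4. Paralogue 5 had 827 bases in Hoxa5, 983 in Hoxb5 and 1987 in Hoxc5. Hoxa7 had 1219 bases and Hoxb7 532. In paralogue 9, Hoxb9 (1736 bases) had the longest and Hoxd9 (787 bases) the shortest, with 1144 in Hoxa9 and 960 in Hoxc9. Hoxa10, Hoxc10 and Hoxd10 had 1309, 818 and 737 bases. No cluster was the longest in every paralogue group. At the other extreme Hoxd11 had 30 bases where Hoxa11, with which it patterns the forearm, had 1254 and Hoxc11 had 1007. Hoxc12 had 92 bases and Hoxd12 had 1653. Hoxa6 had 77 bases, Hoxb6 641 and Hoxc6 840. The 3 shortest models each come from a single protein-coding transcript, so no longer coding alternative stood in the annotation for them. For Hoxa13 the choice of transcript matters: Hoxa13-203, used here, had 1210 bases, and the transcript with the longest coding sequence had 5 exons and a 3' UTR of 51 bases. For Hoxd8, the transcript marked as principal (APPRIS) had 3 exons and a 3' UTR of 0 bases, against the 1121 given here. The longest transcript of any type gave Hoxa7 1635 bases. The longest 3' UTR of any protein-coding transcript of Hoxb9 had 1839. The choice also matters for Hoxc4, whose 801 bases follow the early stop of Hoxc4-202. Part of those bases is coding sequence in Hoxc4-201, which had a 3' UTR of 860 bases. Hoxc4-202 also ends 447 bases before the end of the Hoxc4 record. The 3' end and the microRNA searches given below used Hoxc4-202 for this gene.

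**Figure D4:**
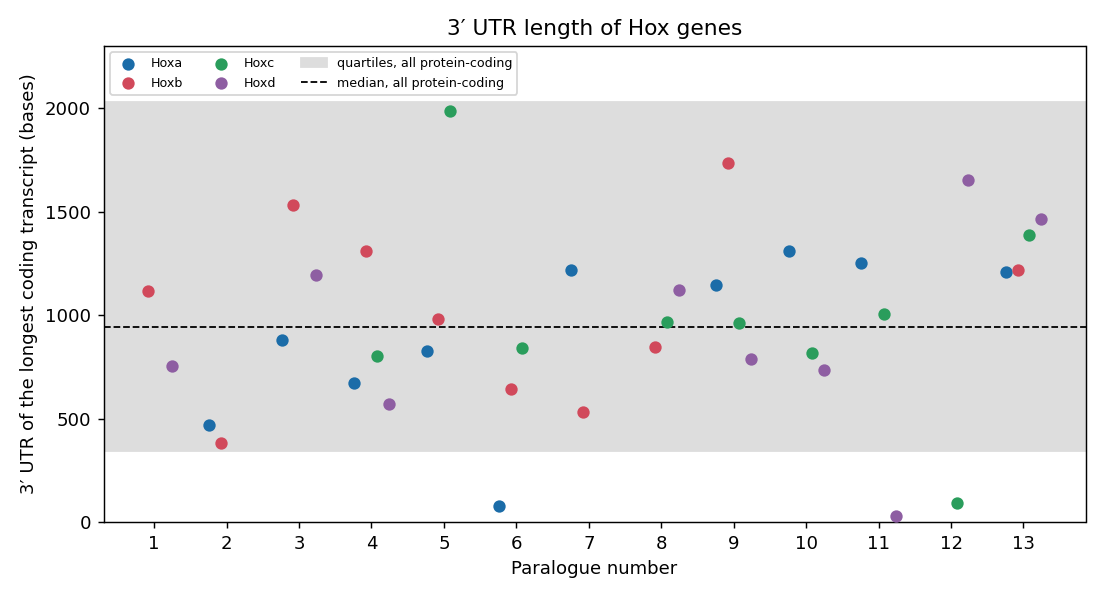
3′ UTR length in bases of the longest protein-coding transcript against paralogue number, 1 point per member shown, coloured by cluster; the dashed line is the median (943 bases) and the grey band the quartiles (346 to 2027) over all protein-coding genes. Paralogue 13 lies within 1210 to 1463 bases, and Hoxd11, Hoxa6 and Hoxc12 lie below the band.

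For 5 members with a 3' UTR under 500 bases, part of the last 500 exonic bases was coding. That part was 467 bases for Hoxd11, 420 for Hoxa6, 405 for Hoxc12, 114 for Hoxb2 and 28 for Hoxa2. Hoxd11 also had a record that ran 2848 bases beyond the end of its coding transcript. That stretch belongs to Hoxd11-201, a transcript of type lncRNA with 3367 exonic bases, which carries the same gene identifier. Reads from either transcript would bear the name Hoxd11.

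The 39 records held 87 transcripts, of which 63 were protein-coding, 17 of type lncRNA, 6 with a retained intron and 1 a target of nonsense-mediated decay. A single transcript was given for 15 of 39 members (background 19.3% of protein-coding genes), and 12 members had at least 1 transcript of type lncRNA. The share over all protein-coding genes was not computed for the last count or for the counts of record ends that follow. In 23 members the gene record had the same ends as the longest protein-coding transcript. In 8 members it reached more than 1000 bases farther upstream: Hoxc5 by 46372 bases, Hoxc6 by 11316, Hoxd4 by 10049, Hoxa10 by 5915, Hoxa7 by 4349, Hoxa9 by 3719, Hoxd11 by 2766 and Hoxb2 by 1106. For Hoxc5 this distance comes from one transcript, the lncRNA-type Hoxc5-202. It has 2 exons and begins within Hoxc10.

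Overlaps between members involved 3 long records. Records neighbouring by paralogue number overlapped in 3 of 35 pairs. Of all protein-coding pairs neighbouring by start position, 9.62% overlapped. The pairs were formed differently, so these shares cannot be ranked. By start position Hoxc5 stands between Hoxc10 and Hoxc9 and overlaps both. Hoxa3 (44275 bases) contained the whole records of Hoxa4, Hoxa5 and Hoxa6. Hoxc5 (49987 bases) contained Hoxc6, Hoxc8 and Hoxc9 and shared 4451 bases with Hoxc10. Hoxd3 (36516 bases) contained the whole 17232 bases of Hoxd4. Exons were shared far less than bodies. Hoxd3 and Hoxd4 had 388 exonic bases in common and Hoxc5 and Hoxc10 had 166, in each case only when all transcripts were counted. The 166 bases are coding sequence of Hoxc10 on the first exon of Hoxc5-202. Between the longest protein-coding transcripts of these pairs 0 exonic bases were shared, and the contained members of cluster a shared 0 with Hoxa3.

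Long non-coding RNA genes were spread unevenly over the clusters. Cluster a held 6, cluster b 4, cluster c 1 and cluster d 6, which makes 17. Their bodies covered 52.8% of the span of cluster a, 27.1% of b, 3.17% of c and 30.4% of d. Of these genes, 13 lay on the strand opposite to the Hox genes. The body of a Hox gene was overlapped by 11 of them, all antisense, and 6 lay between members. An antisense lncRNA lay on 14 of 39 Hox bodies, against 15.0% of protein-coding genes, and 10 of 39 had an exon-on-exon overlap, against 10.2%. The count was 7 of 11 in cluster a, 4 of 10 in cluster b, 0 of 9 in cluster c and 3 of 9 in cluster d.

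In cluster a all 6 lncRNA genes were antisense. Hoxaas3 spanned 39860 bases and ran across 5 members, over the whole of Hoxa4, Hoxa5 and Hoxa6, 38120 bases of Hoxa3 and 586 bases of Hoxa7. Hoxa11os shared 1418 bases with Hoxa11, of which 800 were exonic in both. Hoxaas2 met the 3' end of Hoxa3 over 503 bases. Gm29430 lay within Hoxa3 and on 255 bases of Hoxa4, and Gm15050 lay within Hoxa3 with 0 exonic bases in common. Hottip, which is known to act on the high-numbered Hoxa genes, lay outside the cluster beyond Hoxa13 and was the 1 further lncRNA gene within 10 kb of any cluster.

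In cluster b, Hoxb3os covered all 3488 bases of the Hoxb2 record and 4859 bases of Hoxb3. Hoxb5os covered the whole of Hoxb5 and Hoxb6 but shared exonic bases only with Hoxb5 (100 bases). Gm11536 lay within Hoxb3 with 0 exonic bases in common, and Gm53 lay on the plus strand in the wide gap between Hoxb13 and Hoxb9. In cluster c the one lncRNA gene was Hotair, between Hoxc12 and Hoxc11, with 2006 exonic bases and 0 bases on a member. In cluster d, Hoxd3os1 ran over all of Hoxd8 and over the first part of the Hoxd3 and Hoxd4 records. It shared 347 exonic bases with each of these 2 records, all transcripts counted. The longest protein-coding transcript of Hoxd4 begins at 74721978, beyond the last base of Hoxd3os1 at 74716130. Haglr touched the last 21 bases of the Hoxd3 record and filled most of the space to Hoxd1. Its start lay 84 bases from that of the Hoxd1 coding transcript. Gm28793 began 141 bases from the start of Hoxd9, and Hoxaas2 of cluster a began 843 bases from that of Hoxa2. These were the 3 lncRNA genes of 17 whose start lay within 1000 bases of the start of a member's longest protein-coding transcript. Each lay on the opposite strand to that member. The same share over all lncRNA genes of the annotation was not computed.

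At the 3' ends Hox genes met lncRNAs but not each other. On the same strand, 0 of 39 members shared a base of the last 500 exonic bases with an exon of another gene, where the annotation as a whole had 0.963%. Cell Ranger, which the submitters' processing notes name, counts a read only where it fits 1 gene. With either strand counted, 5 of 39 members shared such bases, against 8.72% of all protein-coding genes, and every partner was an antisense lncRNA. Hoxa3 shared all 500 with Hoxaas2, Hoxa7 all 500 with Hoxaas3 and Hoxb2 all 500 with Hoxb3os. Hoxb3 shared 493 bases with Hoxb3os, and Hoxa4 shared 255 with Gm29430. The use of strand in counting was not given in the sources used here. With strand used, the count that applies is the same-strand 0 of 39. Without strand, reads that fall in the shared bases could not be assigned to one gene of the pair.

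The clusters also hold microRNA genes of the mir-10 and mir-196 families, which pair with messages through a seed, bases 2 to 8. RefSeq (GRCm38.p6) placed 5 hairpins within the clusters, all on the strand of the Hox genes. Mir10a lay 992 bases before the start of Hoxb4 (chromosome 11, 96317165 to 96317274). Mir10b lay within the records of Hoxd4 and Hoxd3 (chromosome 2, 74726070 to 74726137), in introns of both. Mir196a-1 lay 6191 bases before Hoxb9, Mir196a-2 between Hoxc10 and Hoxc9 within the record of Hoxc5, and Mir196b between Hoxa10 and Hoxa9, on exons of 2 non-coding transcripts of Hoxa9, one of type lncRNA (Hoxa9-204) and one with a retained intron (Hoxa9-205). Of these 5 names 0 were matched in the annotation used for counting. The mature sequences are shown because the matches below follow from them, with the seed in capitals.
mmu-miR-10a-5p: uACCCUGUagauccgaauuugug
mmu-miR-10b-5p: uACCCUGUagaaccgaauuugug
mmu-miR-196a-5p: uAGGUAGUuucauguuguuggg
mmu-miR-196b-5p: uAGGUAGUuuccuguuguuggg

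Within each family the seed was identical and 1 base differed, counted from the 5′ end of the miRNA: U12A from miR-10a to miR-10b and A12C from miR-196a to miR-196b. The seed matches searched were ACAGGGT for miR-10 and ACTACCT for miR-196, on the sense strand of the 3' UTR alone. For miR-196, 8 of 39 Hox 3' UTRs held a match, against 6.09% of 20620 protein-coding 3' UTRs. Those 8 held 12 matches, which is 3.19 per 10 kb of Hox 3' UTR and compares with 0.457 per 10 kb over all 3' UTRs. They were Hoxa4, Hoxa5, Hoxa7, Hoxa9, Hoxb1, Hoxb6, Hoxb7 and Hoxc8. Of these 8, 7 carried a number from 4 to 9, a range read from the matches themselves that holds 19 of the 39 members. Hoxa7, an axial patterning gene, held 4 matches between bases 310 and 500 after the stop codon, all of them followed by an A, which makes the match 8 bases long. For miR-10, 4 of 39 held a match, against 12.4% of all 3' UTRs, a share near the background (1.06 and 0.998 matches per 10 kb). Hoxa3, Hoxb3 and Hoxd1 were among them, each with a match of 8 bases. A match is a run of letters in the model, and no binding or repression was measured.

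The most complete match lacked the exact seed. In Hoxb8, whose loss changes grooming behaviour in mice, a stretch beginning 418 bases after the stop codon paired with all 22 bases of miR-196a-5p, 21 as Watson-Crick pairs and 1 as a G-U pair at base 5 of the miRNA, which lies inside the seed. Among 20511 protein-coding 3' UTRs long enough to search, 2 reached 22 pairs without a gap, Hoxb8 included, and the median best pairing was 17. The next Hox genes, Hoxa10 and Hoxd3, each reached 19 pairs, of which 8 and 9 were G-U. With miR-196b-5p the best Hox pairing was again that of Hoxb8, with 21 pairs, a number that 14 of the 20511 3' UTRs reached. The sites below are printed as in the 3' UTR, 5′ to 3′, with the bases that form Watson-Crick pairs in capitals for Hoxb8 and the seed match in capitals for the others. They show the complete pairing beside seed matches of both families.
Hoxb8, miR-196a: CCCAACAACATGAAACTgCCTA
Hoxa7, miR-196, first match: ggcacagccaaaatACTACCTa
Hoxa7, miR-196, last match: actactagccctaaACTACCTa
Hoxb7, miR-196: ctgtaaaaaaatatACTACCTa
Hoxc8, miR-196, second match: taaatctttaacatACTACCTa
Hoxa3, miR-10: actctttgataagaaACAGGGTa
Hoxb3, miR-10: tgacttaacgtgaaaACAGGGTa
Hoxd1, miR-10: tagcggaacaaatccACAGGGTa

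**Figure D5:**
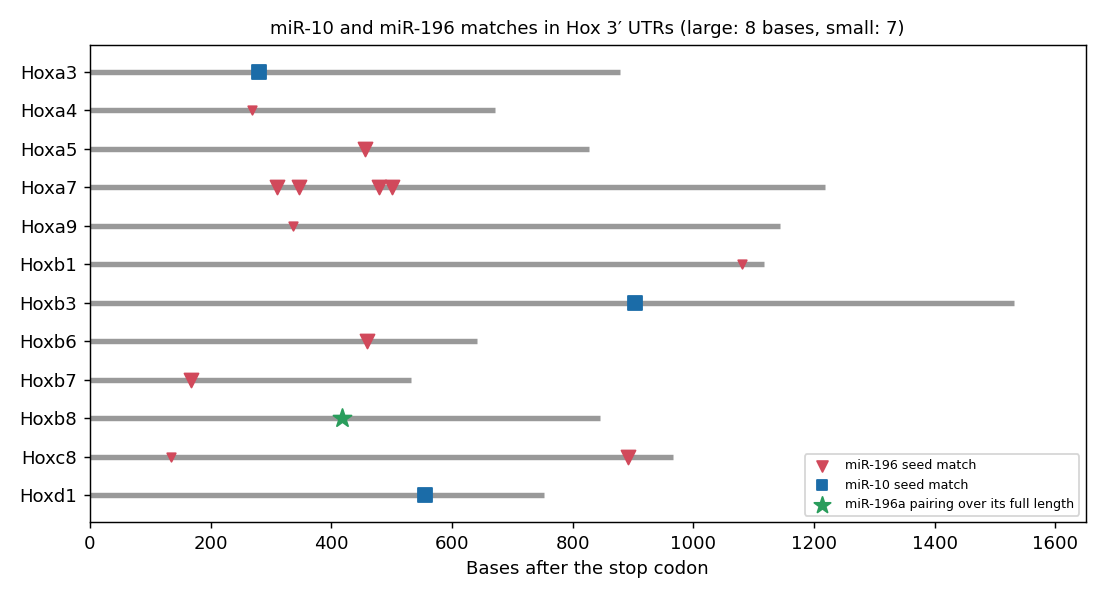
Positions of miR-196 (triangles) and miR-10 (squares) seed matches along the 3′ UTRs of Hox genes that hold one, in bases after the stop codon; large symbols are matches of 8 bases, small ones of 7, and the star is the stretch of Hoxb8 that pairs with all 22 bases of miR-196a. Hoxa7 holds 4 miR-196 matches between bases 310 and 500, and those of miR-10 in Hoxa3, Hoxb3 and Hoxd1 are of 8 bases.

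Lists of cofactors, relatives, neighbours and regulators of Hox genes were set beside them, and most listed genes had more than 2 coding exons. The lists were chosen with earlier results of these data known. The 9 cofactors of the TALE homeobox class, the Pbx, Meis and Pknox genes whose products bind DNA together with Hox proteins, had 8 to 13 exons and a median 3' UTR of 1560 bases. They ran from 205 bases in Pbx4 to 5687 in Meis1, and 0 of 9 had 2 coding exons. The 6 ParaHox and Cdx genes, relatives of the Hox genes, had the models most like theirs among these lists. Of them, 3 of 6 (Gsx1, Gsx2 and Pdx1) had 2 coding exons, and Cdx1, Cdx2 and Cdx4 had 3. Cdx2, a regulator of intestinal identity, had a 3' UTR of 1037 bases, and the list's median was 908. Evx1 and Evx2, the neighbours of clusters a and d, had 3 exons and 3' UTRs of 1279 and 2625 bases. The 19 Polycomb and Trithorax genes, whose products keep Hox genes silent or active, had 5 to 55 exons and a median 3' UTR of 1824 bases, from 283 in Eed to 4547 in Kmt2a. An antisense lncRNA lay on 5 of 9 TALE genes, 1 of 6 ParaHox and Cdx genes, 1 of 2 Evx genes and 2 of 19 Polycomb and Trithorax genes, beside the 15.0% of all protein-coding genes.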

How the data were processed

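The authors deposited 1 gene annotation on build GRCm38, and its start and end positions are 1-based coordinates in bases. Per the file headers, the release was GENCODE M23, from Ensembl 98. The tools named in the submitters' processing notes were Seurat 4.0.3 and R 4.1.0 for analysis and Cell Ranger 6.0.1. Read assignment and cell filters were not given in the sources used here. Expression values and depth per sample were not analysed here.

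From each protein-coding gene the longest protein_coding transcript was taken. The 3' end was its last 500 exonic bases. Sequences came from GENCODE M21 transcripts with identical exons (21409 protein-coding genes) and from RefSeq tables of GRCm38.p6. Python 3.11.15 was used. The functions were tested on simulated data: all 7 returned the known answer for 2000 made transcripts.

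The members, lists and comparisons were chosen with earlier results of these data known. Every Hox member could be named, with the members at the extremes of a measure, those with an unusual exon number, and those with a lncRNA. The searches for a shared word and for pairing along a whole miRNA were added after the data were seen. Alternatives changed the transcript, the ends of a gene, the window and the overlap that counted. The values of 1 member and some sequences are not reported here, and counts and medians include that member.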

Additional observations from a re-analysis of the deposited data

How the results depend on the processing

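Of 32 alternatives, 25 left the value within 1.5 times of that reported and 7 did not. Neighbouring pairs out of paralogue order numbered 2 by the start of the record, 3 by its transcription start and 0 by the first coding base. The median gap of 4099 bases became 8428 between coding sequences and 10860 between transcription starts, since each measures a longer stretch. Overlapping neighbours fell from 3 to 0 between coding sequences. Of 17 lncRNA genes, 6 lay wholly between members. Members sharing 3' bases numbered 0 on the same strand and 5 with either strand. Matches of 8 bases to miR-196 alone gave 5 members instead of 8, a setting chosen after seeing the data, as was the gap between longest coding transcripts. The median 3' UTR ran from 919 to 1007 bases over the choices of transcript. Those 2 medians are over the 38 and 35 members that had a 3' UTR under that choice, against 39 as reported. No paired analysis was possible because the file used holds gene models and no measurement of a sample. Depth was not analysed here.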

Other observations

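Beside GENCODE M21, the deposited file held the same Hox genes and fewer of the other records within the clusters. No record of type miRNA, misc_RNA or processed_pseudogene there was matched. Whether the difference lies between the releases or in a selection of gene types was not tested. All 39 members had the same record ends and the same longest coding model in both. Of the M21 genes that lie in the 4 clusters, 56 were matched in the deposited file and 29 were not, among them 16 of type misc_RNA and 7 microRNAs. Mir615, which M21 places in the Hoxc5 record (chromosome 15, 103014910 to 103015001), was one of these. The protein-coding gene 5730596B20Rik, which M21 places in cluster a on the plus strand (52177498 to 52180851), was also unmatched. Another 3 were readthrough models that join a pair of Hox genes. Gm28308 shared 267 exonic bases with Hoxa2 and 261 with Hoxa3. Gm28309 shared 266 with Hoxd11 and 104 with Hoxd10, and Gm28230 shared 2225 with Hoxd3 and 1154 with Hoxd4. With these models present, the last 500 exonic bases of 3 members would be shared on the same strand: 266 bases of Hoxd11, 147 of Hoxd3 and 22 of Hoxd4. In the deposited file 0 members share such bases.

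Promoter windows from RefSeq (GRCm38.p6), from 250 bases before to 50 after a start, were matched for 22 of 39 members, with 24 windows. The median number of CG pairs was 14.5 per window, against 14 over 20228 windows of protein-coding genes. Single members ranged from 4 in Hoxa9, Hoxd4 and 1 of the windows of Hoxd11 to 45 in Hoxa13, and Hoxd13 had 37.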
